A study of Homo sapiens with 21 samples.

Results

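YAP1 and WWTR1, the gene of TAZ, encode the related transcriptional coactivators YAP and TAZ of the Hippo pathway. The RNA levels of 10 genes of that pathway are described here in BJ cells, a human skin fibroblast line: YAP1, WWTR1, TEAD1, LATS1, LATS2, AMOTL1, AMOTL2, AJUBA, CCN1 and CCN2. They are defined by symbol, with no measured value in the rule, but were chosen with earlier results of these data known. By gene name they were matched to 10 of the 61544 genes of the deposited count table. All 10 passed the filter on low counts that left 16821 genes for testing. The series set late passage beside doxorubicin, as 2 routes to senescence according to its title. The course of passages had 5 groups, BJ cells at P3, P11, P24, P30 and P33, with no agent named in the labels. The drug comparison had BJ cells at P11 given 50 ng/ml DOX, read here as the doxorubicin of the series title, and BJ cells at P11 given DMSO, its solvent control. The length of the exposure was not given in the sources used here. Each of the 7 groups had 3 libraries. The labels do not say whether these came from separate cultures, so the p-values speak only of the spread among these libraries of a single cell line, which may be technical.

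The Hippo pathway is a kinase cascade that restrains growth. Its last kinases, LATS1 and LATS2, phosphorylate YAP and TAZ and so keep them out of the nucleus. When unphosphorylated, for example in cells that are spread on a stiff substrate, YAP and TAZ enter the nucleus, bind TEAD factors and switch on genes such as CCN1 and CCN2. Angiomotin family proteins, AMOTL1 and AMOTL2 among them, bind YAP and hold it at junctions and actin fibres, and AJUBA is a LIM domain protein that binds and inhibits LATS kinases. LATS2 and AMOTL2 are themselves switched on by YAP and TAZ, which closes a negative feedback loop. Because phosphorylation and location set the activity of YAP and TAZ, RNA levels do not measure it.

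CCN2 has repeats of GGAATG, letters that TEAD factors recognise, shortly before its start, and its promoter is shown because CCN2 had the widest fold range among the 5 passages of the 10 genes. The RefSeq promoter table (GRCh38.p14) held an entry for 8 of the 10 genes, with 12 transcription starts in all; CCN1 and TEAD1 had none. The CCN2 stretch covers the 250 bases upstream of the start, at chr6:131951373-131951622 on the minus strand, and is written 5′ to 3′ with each GGAATG in capitals.
CCN2: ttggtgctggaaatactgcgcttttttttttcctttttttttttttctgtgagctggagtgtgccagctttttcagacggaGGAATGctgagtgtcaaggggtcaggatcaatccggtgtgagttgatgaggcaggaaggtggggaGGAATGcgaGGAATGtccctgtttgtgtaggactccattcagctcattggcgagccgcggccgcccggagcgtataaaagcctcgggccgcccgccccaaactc
The search took GGAATG on both strands, so that CATTCC counted as a match on the reverse strand. CCN2 held 3 matches, at bases 169 to 164, 104 to 99 and 95 to 90 before the start. Of all 35116 promoters in the table, 11.9% held at least 1 match and 0.0826% held at least 3. Of the 12 starts, 4 held a match, 1 each of CCN2, YAP1, AMOTL2 and AJUBA. The other 3 starts had a single match each, shown here in 30-base windows to allow comparison of the flanking letters.
YAP1, chr11:102110273-102110302, plus strand: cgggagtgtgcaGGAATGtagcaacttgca
AMOTL2, the second start, chr3:134374499-134374528, minus strand: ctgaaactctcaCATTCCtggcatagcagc
AJUBA, the second start, chr14:22976884-22976913, minus strand: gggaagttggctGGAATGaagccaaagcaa
The match lay 162 to 157 bases before the start of YAP1, 69 to 64 bases before that of AMOTL2, where it was on the reverse strand, and 59 to 54 bases before that of AJUBA. A search for TGANTCA, the AP-1 sequence, found a match at 1 of the 12 starts, one of LATS1, against 6.57% of all promoters. No start held a CArG box, the sequence bound by SRF, which 1.16% of all promoters held. These are letter matches in a window, and binding was not measured.

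Depth ran from 12946375 counts (P30 replicate 3) to 27194352 counts (DOX replicate 1), and no 2 libraries of a group agreed within sampling noise. Levels are in CPM, a gene's counts relative to the total of its library after scaling by the trimmed mean of M values (TMM), written as mean ± SD of n = 3 libraries, in the order of replicates 1, 2 and 3 where single libraries are listed. Differences are log2 differences from the edgeR quasi-likelihood fit, with adjusted p by the Benjamini-Hochberg method over all 16821 genes, and "rose" or "fell" is used only for an adjusted p under 0.05. The 9 fibroblast markers were all tested, and their summed level was 14201.4 to 25474.2 CPM in the 15 passage libraries and 39851.1 to 43831.8 CPM in the 6 DOX and DMSO libraries. Keratinocyte markers summed to 12.2 to 28.9 CPM, most of it from KRT10, whose group means ran from 12.3 CPM with DMSO to 24.8 CPM at P11. KRT5 was at 0 in every library, and the highest group mean of the other keratinocyte markers was that of DSG3, 1.17 CPM with DOX. Endothelial, leukocyte, melanocyte and adipocyte markers summed to under 3 CPM in every library. Smooth muscle and pericyte markers summed to 4.26 to 10.1 CPM. The passage libraries and the DOX and DMSO libraries differed in how reads over overlapping genes were counted. Among 9429 genes nested within a larger gene of their own strand, 0 were given reads in any passage library, whereas 3950 were given reads in a DOX or DMSO library. WWTR1, with only 0.541% of its span shared on its strand, also stood apart, at 102 ± 0.552 CPM at P11 and 195 ± 13.4 CPM with DMSO. Some genes with no overlap on their strand stood apart too. CCDC80 was at 298 ± 9.76 CPM at P11 and 1111 ± 39.7 CPM with DMSO. CRIM1 was at 1037 ± 12.6 CPM and 421 ± 7.37 CPM. Over the 5748 protein-coding genes without such overlap at 10 CPM or more with DMSO, the median log2 difference of P11 from DMSO was -0.10. The sets thus differed in more than overlapping genes, and the cause was not tested. Levels are therefore not otherwise compared across these sets of libraries, and P11 is not used as a control for DOX.

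**Figure D1:**
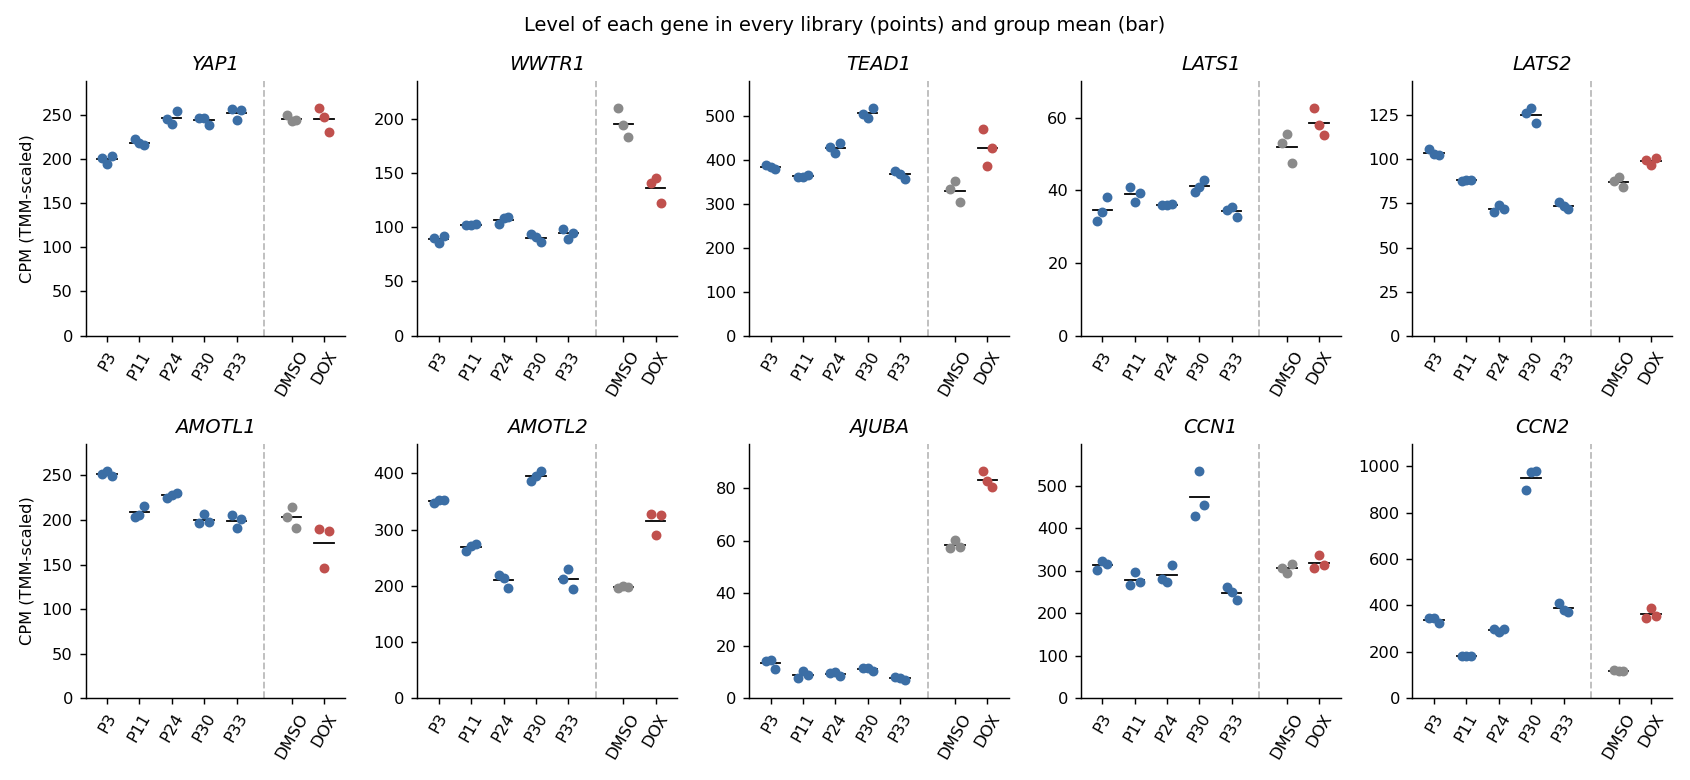
Level of each of the 10 genes in every library, in TMM-scaled CPM on linear axes that start at 0, with the 5 passages in blue, DMSO in grey and DOX in red; points are libraries and bars are group means of 3. CCN2 reached 951 ± 46.8 CPM at P30, and the dashed line separates the libraries that were counted differently, across which levels are not compared.

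The 10 genes spanned a wide range of levels once divided by the length of their exons (CPM per kilobase of the GENCODE v29 exon union). At P3 the order was CCN2 at 144, CCN1 at 137, AMOTL2 at 73.4, TEAD1 at 41.5, YAP1 at 35.5, AMOTL1 at 28.0, LATS2 at 18.8, WWTR1 at 16.6, LATS1 at 4.45 and AJUBA at 2.78 CPM per kilobase. The last place of AJUBA is uncertain, because 97.4% of its span is shared with a gene on its strand. AJUBA was below LATS1 in every passage. It was above LATS1 with DMSO, at 12.2 against 6.69, and with DOX, at 17.4 against 7.55 CPM per kilobase. The part of the counting in this reversal was not tested. The libraries of CCN2 and CCN1 overlapped at P3, so that the order of these neighbours was within their spread. At P30 CCN2 stood at 407 and CCN1 at 206 CPM per kilobase, and their libraries did not overlap. LATS2 and AMOTL1 overlapped at P30, TEAD1 and YAP1 at P11, and AMOTL2 overlapped with both YAP1 and TEAD1 at P24 and at P33. In the DMSO libraries CCN1 was the highest at 134, followed by CCN2 at 50.5, and in the DOX libraries CCN2 at 155 was above CCN1 at 139 CPM per kilobase, with no overlap between CCN1 and CCN2 in either group. YAP1 was above WWTR1 in all 7 groups and without overlap, at 35.5 against 16.6 at P3 and 44.8 against 17.5 CPM per kilobase at P33. LATS2 was likewise above LATS1 in all 7 groups without overlap, at 13.4 against 4.41 CPM per kilobase at P33.

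All 10 genes differed somewhere among the 5 passages, as did 82.9% of all genes tested (adjusted p from 2.35e-26 for CCN2 to 0.00325 for LATS1). The coactivator YAP1 stood lowest at P3 and the other coactivator, WWTR1, was highest at P11 and P24. The feedback genes LATS2 and AMOTL2, the targets CCN1 and CCN2, and also TEAD1 and LATS1 had their highest passage mean at P30, as did 17% of all genes tested. In bulk RNA, fewer cells of a type and less RNA per cell cannot be told apart, and this holds for every level given here. The summed level of the 9 fibroblast markers itself varied, from 14201.4 to 16239.4 CPM at P33 to 24718.3 to 25474.2 CPM at P30, and its part in the results below was not tested. The sum hides opposite courses. At P30 the means of COL1A1, COL1A2, COL3A1, PDGFRB and LUM were above those at P3, and those of VIM, THY1, DCN and FAP were below. COL1A2 had means of 5794 CPM at P3 and 10681 CPM at P30, and VIM 4238 and 2635 CPM.

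Of the coactivators, YAP1 was read at 201, 195 and 204 CPM at P3, 223, 218 and 216 CPM at P11 and 245, 240.4 and 254 CPM at P24. It was 246, 247 and 239 CPM at P30 and 256, 245 and 256 CPM at P33. Every library from P11 onward was above every P3 library, and the libraries of P24, P30 and P33 overlapped one another. From P3 to P33 YAP1 rose 1.26-fold (log2 difference 0.34, SE 0.05, adjusted p = 2.59e-07), and at P11 it was already higher by 0.13 on the log2 scale (adjusted p = 0.0267). Both log2 differences were larger on total counts without the TMM factor, at 0.53 for P33 and 0.25 for P11. That early step did not pass the test without P3 replicate 1, P3 replicate 2, P11 replicate 1 or P11 replicate 2 (adjusted p = 0.0703, 0.115, 0.104 and 0.0541). The gene lies at chr11:102110447-102233424 on the plus strand (hg38).

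WWTR1 (chr3:149517235-149736714, minus strand) took another course. It was read at 89.8, 85.3 and 91.9 CPM at P3, 102, 102 and 103 CPM at P11 and 103, 108 and 109 CPM at P24, then 93.4, 90.8 and 86.3 CPM at P30 and 98.4, 89.3 and 94.9 CPM at P33. All P11 and P24 libraries lay above all libraries of the other 3 passages. WWTR1 rose from P3 to P24 (log2 difference 0.26, adjusted p = 0.000471) and fell from P24 to P30 by 0.24 on the log2 scale (adjusted p = 0.00234). Between P3 and P33 the difference was 0.08 with a 95% interval of -0.05 to 0.21 (adjusted p = 0.238). On total counts without the TMM factor the same difference was 0.28 and passed (adjusted p = 0.000209). That scaling moved the median of all genes between P3 and P33 by 0.18, and that between P3 and P11 by 0.10 and between P30 and P33 by 0.14.

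TEAD1 (chr11:12674421-12944737, plus strand), the DNA-binding partner of both coactivators, was read at 389.7, 385 and 379 CPM at P3, 361, 362 and 367 CPM at P11 and 431, 415 and 438 CPM at P24. At P30 it was 504.2, 497 and 518 CPM, and at P33 376, 369 and 357 CPM. The 3 P30 libraries were the highest of the course and did not overlap with any other passage. From P24 to P30 TEAD1 rose 1.18-fold (log2 difference 0.24, SE 0.06, adjusted p = 0.00115), and from P30 to P33 it fell 1.38-fold (log2 difference -0.46, SE 0.06, adjusted p = 5.07e-08; -0.30 on total counts). P33 and P3 differed by -0.07 (95% interval -0.19 to 0.06), a difference that turned to 0.13 on total counts (adjusted p = 0.0446).

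Of the kinase genes, LATS2 had the wider range of levels among the passages. LATS2 (chr13:20973036-21061586, minus strand) was read at 106, 103 and 102 CPM at P3, 88.1, 88.2 and 88.2 CPM at P11 and 70.3, 74.1 and 71.7 CPM at P24. It stood at 127, 129 and 121 CPM at P30 and 75.7, 73.4 and 71.6 CPM at P33. The P30 libraries were above all others, the P3 libraries came next, and those of P24 and P33 overlapped at the bottom. LATS2 rose 1.74-fold from P24 to P30 (log2 difference 0.80, SE 0.05, adjusted p = 9.4e-15), fell 1.7-fold from P30 to P33 (log2 difference -0.77, SE 0.05, adjusted p = 1.16e-14), and was 1.41-fold lower at P33 than at P3 (log2 difference -0.50, SE 0.05, adjusted p = 1.01e-10; -0.30 on total counts). LATS1 (chr6:149658153-149718105, minus strand) ranged from 34.2 ± 1.35 CPM at P33 to 41.0 ± 1.76 CPM at P30. Its libraries were at 31.5, 34.0 and 38.2 CPM at P3, 40.8, 36.8 and 39.3 CPM at P11 and 35.9, 35.9 and 36.1 CPM at P24, and then at 39.4, 40.8 and 42.9 CPM at P30 and 34.5, 35.4 and 32.7 CPM at P33. Groups overlapped in part, though every P30 library was above every P24 and P33 library. Its rise from P24 to P30 was 0.19 on the log2 scale (adjusted p = 0.0376), and it did not pass the test without any 1 of P24 replicates 1, 2 and 3 or P30 replicates 2 and 3 (adjusted p from 0.0766 to 0.136). Its difference between P33 and P3 was -0.01 (95% interval -0.16 to 0.14), and 0.18 on total counts (adjusted p = 0.0194).

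Of the angiomotin family, AMOTL2 (chr3:134355347-134375479, minus strand) had passage means from 209.6 ± 12.3 CPM to 395 ± 8.8 CPM, and AMOTL1 from 199 ± 7.25 CPM to 252 ± 3.06 CPM. AMOTL2 was read at 347, 352 and 353 CPM at P3, 263, 270.4 and 274 CPM at P11 and 219.7, 213 and 196 CPM at P24. At P30 it was 386, 396 and 404 CPM, and at P33 212, 230.0 and 194 CPM. Its P30 libraries were above all others and its P24 and P33 libraries overlapped at the lowest levels. It rose 1.89-fold from P24 to P30 (log2 difference 0.92, SE 0.06, adjusted p = 1.48e-14), fell 1.87-fold to P33 (log2 difference -0.90, SE 0.06, adjusted p = 1.25e-14), and was 1.65-fold lower at P33 than at P3 (log2 difference -0.73, SE 0.06, adjusted p = 6.23e-13). AMOTL2 shares 6.03% of its span with RPL39P5, a pseudogene on the same strand that had 90 reads in the passage libraries against 86180 for AMOTL2. AMOTL1 (chr11:94706431-94876748, plus strand) was read at 251, 255 and 249 CPM at P3, 204, 206 and 216 CPM at P11, 225, 228 and 230.1 CPM at P24, 197, 206 and 198 CPM at P30 and 205, 191 and 201 CPM at P33. Its P3 libraries were the highest, its P24 libraries came next, and those of P11, P30 and P33 overlapped. AMOTL1 was 1.26-fold lower at P33 than at P3 (log2 difference -0.34, SE 0.06, adjusted p = 2.76e-05). On total counts that log2 difference was -0.14 (adjusted p = 0.0459). Between P30 and P33 AMOTL1 differed by -0.0079 (adjusted p = 0.971), and by 0.16 on total counts (adjusted p = 0.0411). Its fall from P24 to P30, by 0.19 on the log2 scale (adjusted p = 0.0251), did not pass without P24 replicate 2 or 3 or P30 replicate 1 or 3 (adjusted p from 0.0567 to 0.0838).

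AJUBA (chr14:22971177-22982551, minus strand), the LATS inhibitor, was read at 14.2, 14.5 and 11.1 CPM at P3, 7.73, 10.5 and 8.91 CPM at P11 and 9.45, 10.04 and 8.4 CPM at P24. It was at 11.5, 11.4 and 10.5 CPM at P30 and 8.13, 7.86 and 7.04 CPM at P33. The P33 libraries lay below all P3 and P30 libraries, and the other passages overlapped in part. From P3 to P33 there was a fall of 1.73-fold (log2 difference -0.79, SE 0.10, adjusted p = 2.42e-08). From P30 to P33 it fell 1.46-fold (adjusted p = 0.000108). The passage values of AJUBA are uncertain, because 97.4% of its span is shared with ENSG00000259132, a protein-coding gene on the same strand. In the passage libraries AJUBA had 3086 reads and ENSG00000259132 had 1271, while in the DOX and DMSO libraries they had 8617 and 0. The rise of AJUBA from P24 to P30 (log2 difference 0.27, adjusted p = 0.046) did not pass without P24 replicate 1 or 3 or P30 replicate 1 or 2 (adjusted p from 0.0724 to 0.229).

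The targets CCN1 and CCN2 encode secreted matricellular proteins, formerly named CYR61 and CTGF. CCN2 (chr6:131948176-131951372, minus strand), the gene whose promoter holds the 3 GGAATG matches, was read at 347, 344 and 323 CPM at P3, 182, 183 and 181 CPM at P11 and 298, 287 and 299 CPM at P24. It reached 897, 977 and 979.5 CPM at P30 and returned to 412, 380.0 and 373 CPM at P33. The 5 passages did not overlap with one another, with P11 at the bottom and P30 at the top. CCN2 fell 1.86-fold from P3 to P11 (log2 difference -0.89, SE 0.05, adjusted p = 3.26e-14) and rose 1.62-fold from P11 to P24 (log2 difference 0.69, SE 0.05, adjusted p = 4.87e-12). It then rose 3.23-fold from P24 to P30 (log2 difference 1.69, SE 0.05, adjusted p = 1.24e-21) and fell 2.45-fold from P30 to P33 (log2 difference -1.29, SE 0.05, adjusted p = 3e-19). P33 was 1.15-fold above P3 (log2 difference 0.20, SE 0.05, adjusted p = 0.0014; 0.40 on total counts), and P24 was lower than P3 by 0.20 on the log2 scale (adjusted p = 0.00219; 0.0864 on total counts). An antisense gene, CCN2-AS1, overlaps 13.4% of the span of CCN2 and had 184 reads in the passage libraries against 125059 for CCN2; the strand setting of the counting was not given in the sources used here.

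CCN1 (chr1:85580761-85584589, plus strand), which overlaps no other annotated gene, was read at 303, 323 and 315 CPM at P3, 267, 296 and 273 CPM at P11 and 282, 274 and 313 CPM at P24, and at 429, 534 and 454 CPM at P30 and 263, 250.1 and 232 CPM at P33. P30 was above all other passages in every library, and replicate 2 was the highest of its 3 libraries. CCN1 rose 1.63-fold from P24 to P30 (log2 difference 0.71, SE 0.07, adjusted p = 2.27e-10) and fell 1.9-fold from P30 to P33 (log2 difference -0.93, SE 0.07, adjusted p = 2.64e-13). It was lower at P33 than at P3, 1.26-fold (log2 difference -0.34, SE 0.07, adjusted p = 4.28e-05). That fall was -0.14 on total counts and did not pass there (adjusted p = 0.0613). Its small fall from P3 to P11 (log2 difference -0.17, adjusted p = 0.0355) was -0.053 on total counts (adjusted p = 0.561). It did not pass with the filter of 10 CPM (adjusted p = 0.11), without overlapping genes (adjusted p = 0.0638), or without P3 replicate 2 or 3 or P11 replicate 1 or 3 (adjusted p from 0.0711 to 0.139).

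Counted over the 10 genes, 9 passed the test between P11 and P3, 3 higher and 6 lower, where 46.5% of all genes passed, 22.9% higher and 23.6% lower. Between P24 and P3, 7 passed, 3 higher and 4 lower, beside 54.4% of all genes, 26.6% higher and 27.8% lower. Between P30 and P3, 9 passed, 7 higher and 2 lower, beside 58.6% of all genes, 29% higher and 29.6% lower. Between P33 and P3, 7 passed, 2 higher and 5 lower, beside 67.8% of all genes, 34.5% higher and 33.3% lower. The 2 that were higher at P33 were YAP1 and CCN2, and the 5 lower ones were LATS2, AMOTL1, AMOTL2, AJUBA and CCN1. These 4 comparisons share the P3 libraries. The median log2 difference of the 10 genes was -0.20 at P11, -0.13 at P24, 0.26 at P30 and -0.20 at P33, beside a median of 0 over all genes in each. The balance at P33 turned with the scaling: on total counts 9 of the 10 genes passed, 5 higher and 4 lower, with a median of -0.0058, and WWTR1, TEAD1 and LATS1 joined YAP1 and CCN2 as higher. On the same counts, the share of higher genes among all genes passing went from 50.9% to 65.6%. At P11 and P24 total counts gave 8 and 6 of the 10 genes, and that share went from 49.2% to 67.4% and from 48.9% to 60.3%. The count at P11 dropped to 5 without P3 replicate 2.

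Taken step by step, 5 of the 10 genes passed between P24 and P11, 3 higher and 2 lower, beside 33.6% of all genes, 16% higher and 17.7% lower. Between P30 and P24, 9 passed, beside 35.1% of all genes; 7 were higher, beside 18% of all genes, and 2 were lower, beside 17.1%. The 7 were TEAD1, LATS1, LATS2, AMOTL2, AJUBA, CCN1 and CCN2, the 2 were WWTR1 and AMOTL1, and YAP1 did not pass (log2 difference -0.01, 95% interval -0.12 to 0.09). Leaving out a single library left 6 or 7 of the 9. On total counts 7 passed, 5 higher and 2 lower, without LATS1 and AJUBA, and the share of higher genes among all genes passing went from 51.3% to 38.7%. Between P33 and P30, 7 passed, beside 48.4% of all genes; all 7 were lower and 0 higher, beside 24.8% and 23.6% of all genes. They were TEAD1, LATS1, LATS2, AMOTL2, AJUBA, CCN1 and CCN2. On total counts 9 passed, 3 higher and 6 lower, and that share went from 48.7% to 73%. The 3 were YAP1 (log2 difference 0.21, adjusted p = 0.000652), WWTR1 (0.22, adjusted p = 0.00369) and AMOTL1, and LATS1 no longer passed (-0.097, adjusted p = 0.273). YAP1 and WWTR1 also passed as higher with the filter of 10 CPM (adjusted p = 0.013 and 0.0409). The steps into and out of P30 share the P30 libraries, so a high or low reading in these libraries enters both with opposite sign. The median log2 difference of the 10 genes was 0.26 for the step into P30 and -0.50 for the step out of it, and that of all genes was 0 in both. P30 was the passage with the highest mean for 6 of the 10 genes, and for 17% of all genes tested. It was also the highest for 8 of 18 other listed YAP and TAZ targets and for 10 of 25 other Hippo regulators. The same held for 2 of 5 other TEAD and VGLL factors tested and 0 of 3 other CCN genes tested. Because the 10 genes were chosen with earlier results of these data known, their counts beside the shares of all genes are descriptions and do not test the set.

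**Figure D2:**
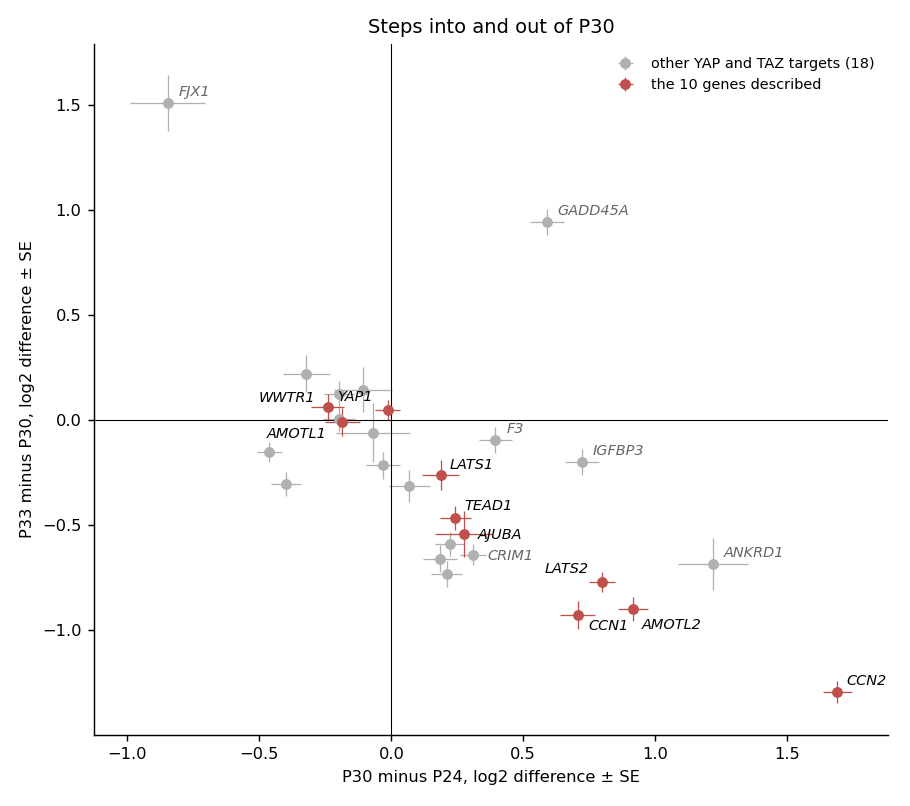
Log2 difference of P33 from P30 (vertical) against log2 difference of P30 from P24 (horizontal), each ± SE, for the 10 genes in red and for 18 other listed YAP and TAZ targets in grey. CCN2 lies farthest to the lower right at 1.69 and -1.29; both axes use the P30 libraries, so the downward slant of the points is not a result in itself.

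Other YAP and TAZ targets moved in both directions. Of 18 such genes, all tested, 8 rose and 6 fell between P24 and P30 (median log2 difference 0.02), beside 18% of all genes higher and 17.1% lower. Between P30 and P33, 3 rose and 10 fell (median -0.17), beside 23.6% and 24.8%. ANKRD1, a muscle stress protein gene often read beside CCN1 and CCN2, rose by 1.22 and then fell by 0.68 on the log2 scale, at 7.42 ± 0.785 CPM, 17.2 ± 2.93 CPM and 10.8 ± 1.83 CPM. GADD45A, a stress and DNA damage response gene, rose at both steps, with log2 differences of 0.59 and 0.94. These 2 genes are named for these steps after their values were seen. Between P3 and P33, 5 of the 18 rose, 9 fell and 4 did not pass (median log2 difference -0.10), beside 34.5% of all genes higher and 33.3% lower. IGFBP3, which encodes a secreted binding protein of insulin-like growth factors, rose by 1.498 and GADD45A by 1.25 on the log2 scale. RBMS3, an RNA-binding protein gene, rose by 1.53 on the log2 scale, a value that is uncertain because 83.1% of its span is shared with a gene on the same strand. On the log2 scale, the falls between P3 and P33 included those of AXL, a receptor tyrosine kinase gene (-0.75) and MYOF, the gene of the membrane repair protein myoferlin (-0.51).

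Of 25 other Hippo regulators, 8 rose and 8 fell between P24 and P30, beside 18% of all genes higher and 17.1% lower. Between P30 and P33, 5 rose and 14 fell, beside 23.6% and 24.8%. Between P3 and P33, 5 rose, 13 fell and 7 did not pass (median log2 difference -0.18), beside 34.5% of all genes higher and 33.3% lower. On the log2 scale, the largest rises were those of the atypical cadherin gene FAT1 (0.50, from 949 ± 48.1 CPM to 1344 ± 73.7 CPM), the LATS-related kinase gene STK38L (0.32) and SLMAP (0.30), which encodes a part of the STRIPAK phosphatase complex. AMOT, the founding angiomotin, fell by 1.31 on the log2 scale, from 8.47 ± 0.427 CPM to 3.41 ± 0.685 CPM. DCHS1, another atypical cadherin gene, fell by a log2 difference of 1.25 and WWC1, the gene of the scaffold KIBRA, by 2.29 at low levels of 1.59 ± 0.355 CPM and 0.319 ± 0.0767 CPM. Of the 7 other listed TEAD and VGLL factors 5 were tested. VGLL4, a competitor of YAP for TEAD, rose by 0.47 on the log2 scale between P3 and P33, while TEAD4, TEAD2 and TEAD3 fell by 0.97, 0.47 and 0.39. Of the rest of the CCN family, 3 of 4 genes were tested: on the log2 scale CCN4 rose by 0.78, CCN3 fell by 0.93 and CCN5 fell by 1.61, the first and last at means of at most 4.06 CPM in both groups.

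With doxorubicin, the largest change among the 10 genes was the rise of CCN2. Of the 10 genes, 8 passed between DOX and DMSO, beside 37.3% of all genes; 6 were higher, beside 16.7% of all genes, and 2 were lower, beside 20.6%. CCN2, AMOTL2, AJUBA, TEAD1, LATS2 and LATS1 were higher with DOX and WWTR1 and AMOTL1 were lower. YAP1 and CCN1 did not pass. The median log2 difference of the 10 genes was 0.18, beside -0.01 over all genes.

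Of the coactivators, YAP1 was read at 250.2, 243 and 244 CPM with DMSO and 258, 248 and 231 CPM with DOX. The libraries overlapped, and the log2 difference had a 95% interval of -0.10 to 0.10 (adjusted p = 0.992). WWTR1 was read at 209, 194 and 183 CPM with DMSO and 141, 145 and 122 CPM with DOX. All DOX libraries were below all DMSO libraries, a fall of 1.44-fold (log2 difference -0.52, SE 0.06, adjusted p = 1.03e-08). TEAD1 was read at 334, 353 and 304 CPM with DMSO and 470.3, 386 and 427 CPM with DOX. Here all DOX libraries were above all DMSO libraries, a rise of 1.29-fold (log2 difference 0.37, SE 0.06, adjusted p = 3.41e-06). The DOX libraries spread more widely, at 428 ± 42.4 CPM, than the DMSO libraries, at 330.4 ± 24.6 CPM.

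Both kinase genes were slightly higher with DOX. LATS2 went from 87.5, 89.8 and 84.2 CPM to 99.8, 96.6 and 101 CPM, without overlap, a rise of 1.14-fold (log2 difference 0.19, SE 0.05, adjusted p = 0.00268). LATS1 went from 53.0, 55.4 and 47.4 CPM to 62.6, 58.1 and 55.3 CPM, and the lowest DOX library was just below the highest DMSO library. Its rise of 1.13-fold (adjusted p = 0.0346) did not pass without DOX replicate 1 or 2 or DMSO replicate 1 or 3 (adjusted p = 0.218, 0.0541, 0.0623 and 0.245).

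Of the angiomotin genes, AMOTL2 rose with DOX, while AMOTL1 was lower but did not pass when either of 2 libraries was left out. AMOTL2 was read at 196, 200.1 and 199 CPM with DMSO and 327, 291 and 326 CPM with DOX, with no overlap, and rose 1.59-fold (log2 difference 0.67, SE 0.06, adjusted p = 2.03e-11). AMOTL1 was read at 203, 215 and 191 CPM with DMSO and 189.7, 146 and 188 CPM with DOX. DOX replicate 2 was the lowest of the 6 libraries, and the other DOX libraries were below but close to the lowest DMSO library. The fall of AMOTL1 was 1.16-fold (log2 difference -0.22, SE 0.07, adjusted p = 0.00805), and it did not pass without DOX replicate 2 (log2 difference -0.11, adjusted p = 0.113), without DMSO replicate 2 (adjusted p = 0.0698) or with both sets of libraries fitted apart (adjusted p = 0.087). AJUBA was read at 57.4, 60.2 and 57.4 CPM with DMSO and 86.6, 82.8 and 80.4 CPM with DOX, with no overlap. It rose 1.43-fold (log2 difference 0.51, SE 0.07, adjusted p = 3.73e-07). The gene that shares its span had 0 reads in these 6 libraries.

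The targets parted with DOX. CCN2 was read at 122, 116 and 116 CPM with DMSO and 347, 389 and 353 CPM with DOX. Every DOX library was far above every DMSO library, a rise of 3.07-fold (log2 difference 1.62, SE 0.06, adjusted p = 3.03e-21). CCN1 was read at 307, 295 and 315 CPM with DMSO and 307, 337 and 314 CPM with DOX, and the groups overlapped. Its log2 difference was 0.06 with a 95% interval of -0.08 to 0.20 (adjusted p = 0.502). Of the 18 other targets 7 rose, 6 fell and 5 did not pass (median log2 difference 0.14), beside 16.7% of all genes higher and 20.6% lower. On the log2 scale, GADD45A rose by 1.38, ANKRD1 by 1.29 at low levels (1.52 ± 0.271 CPM and 3.76 ± 0.423 CPM) and IGFBP3 by 1.18. The largest falls on the same scale were those of FOXF2, a forkhead factor gene of mesenchyme (-0.73), NT5E, the gene of the ectonucleotidase CD73 (-0.40), and MYOF (-0.30).

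Among the 25 other Hippo regulators, 7 rose, 8 fell and 10 did not pass with DOX (median log2 difference 0.00), beside 16.7% of all genes higher and 20.6% lower. On the log2 scale, FAT1 rose by 0.81, FRMD6, the gene of a FERM domain protein upstream in the cascade, by 0.65 and WWC2, a relative of WWC1, by 0.28. On the same scale AMOT fell by 1.15, DCHS1 by 0.87 and SAV1, the scaffold of the upstream kinases, by 0.34. VGLL3, a TEAD cofactor gene, rose by a log2 difference of 0.24, while TEAD2, VGLL4 and TEAD3 fell by 0.63, 0.32 and 0.17. The fall of TEAD3 did not pass without DOX replicate 1 or 2 or DMSO replicate 2 or 3 (adjusted p from 0.0821 to 0.171). On the log2 scale CCN5 fell by 1.59 and CCN4 by 1.13, from 20.3 ± 0.464 CPM to 9.28 ± 0.323 CPM, and CCN3 did not pass.

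The effect of DOX and the effect of late passage were then tested against each other, as the log2 difference of DOX from DMSO minus that of P33 from P3, which share no library. Of the 10 genes 8 passed, beside 51.2% of all genes. In 6 the effect of DOX was the more positive, beside 25.8% of all genes, and in 2, YAP1 and WWTR1, the effect of P33 was, beside 25.4%. For AMOTL2 the effects on the log2 scale were 0.67 and -0.73, which differed by 1.40 (SE 0.08, adjusted p = 1.62e-15). For CCN2 they were 1.62 and 0.20, which differed by 1.42 (SE 0.08, adjusted p = 3.13e-16). The baselines differed in passage, with DMSO cells at P11 for DOX and P3 cells for P33. Between P3 and P11, CCN2, AMOTL2 and LATS2 fell (log2 differences -0.89, -0.38 and -0.24). P33 was not tested against P11, where CCN2 stood at 182 ± 1.25 CPM, below its 388 ± 20.6 CPM at P33. AMOTL2, AJUBA and LATS2 rose with DOX and fell at P33, whereas CCN2 rose in both. From P3 to P30, by contrast, AMOTL2, LATS2 and CCN2 rose (log2 differences 0.17, 0.27 and 1.49), while AJUBA fell (-0.25). The P30 calls of AMOTL2 and AJUBA were lost in some alternatives. AJUBA's passage values are uncertain, because 97.4% of its span is shared with a gene on its strand. In the test of both effects, LATS1 and AMOTL1 did not pass, with differences of 0.19 (95% interval -0.02 to 0.39) and 0.12 (95% interval -0.08 to 0.31). AMOTL1 passed without DOX replicate 2 (adjusted p = 0.0075) and LATS1 without P3 replicate 1 (adjusted p = 0.0392).

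**Figure D3:**
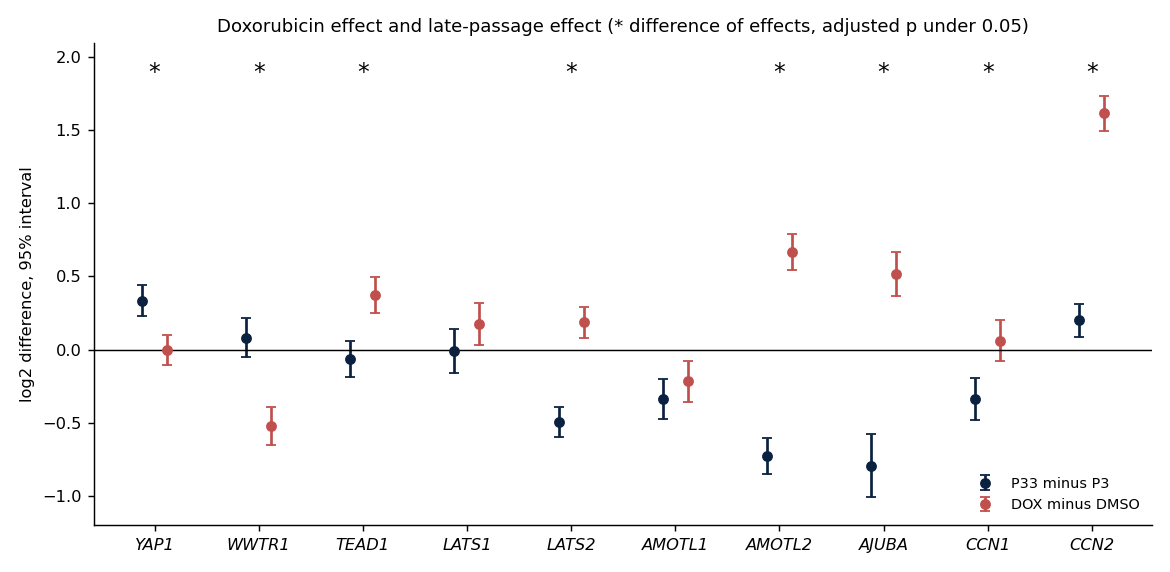
Log2 difference of P33 from P3 (dark blue) and of DOX from DMSO (red) for the 10 genes, with 95% intervals; an asterisk marks an adjusted p under 0.05 for the difference between both effects. CCN2 is at 1.62 with DOX and 0.20 at P33, and AMOTL2 is above 0 with DOX and below 0 at P33.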

How the data were processed

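Poly(A)-selected RNA of 21 BJ libraries was sequenced after random priming, per the labels' protocols, although the labels' fields for molecule and library source say genomic; the table was read as RNA counts. The values used are the raw read counts per gene that the authors deposited. The submitters' processing notes name FastQC 0.11.9, cutadapt 3.3, HISAT2 2.1.0, SAMtools 1.11, featureCounts 2.0.1 of Subread and DESeq2 1.34.0, with hg38 and GRCh38.p13; no source used here states the strand and overlap settings. The table's other numeric column, the length the authors deposited per gene, equals the gene's span and was used only to read overlaps.

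Samples were grouped by their titles. Counts were fitted with edgeR 4.0.16 (R 4.3.3): genes under a minimum count of 10 by filterByExpr were dropped, libraries were scaled by TMM (factors 0.899 to 1.13), and the quasi-likelihood test, two-sided, was run in 1 model of 7 group means with 14 residual degrees of freedom. P-values were adjusted by the Benjamini-Hochberg method over all 16821 genes, with a threshold of 0.05. Each SE was derived from the log2 difference and the F statistic of its test. Intervals are 95% t intervals from these SEs with 14 degrees of freedom. The test itself uses more degrees of freedom, so the intervals are somewhat wider than its p-values imply. Group levels are means and SDs of 3 libraries, whose number limits the precision. Exon lengths came from GENCODE v29 and promoters from RefSeq. The method was also run on simulated counts in which few genes changed. That run does not test the scaling, and its outcome is not reported here. Alternatives were RLE size factors, total counts, no filter, a filter of 10 CPM in 3 libraries, a replicate block, both sets of libraries fitted apart, DESeq2 1.42.0, removal of genes that overlap on the same strand, and leaving out each library.

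The 10 genes and the other lists were chosen with earlier results of these data known. Other genes are named by rule: in P33 with P3 and DOX with DMSO, up to 3 largest rises and falls of each list, and for CCN1, CCN2, YAP1 and WWTR1 the 3 genes with the highest Pearson r over the 15 passage libraries, from genes with a mean of at least 5 CPM and no overlap on the same strand. One gene named by this rule is not reported here.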

Additional observations from a re-analysis of the deposited data

Results flagged for a closer look

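For 8 of the 10 genes the effect of DOX (DOX with DMSO) and the effect of late passage (P33 with P3) differed by the edgeR quasi-likelihood test of the difference itself, on the log2 scale, with adjusted p over all genes. The baselines differed in passage, with DMSO cells at P11 and passage cells at P3. For CCN2 the choice of baseline matters, as its mean was 338 ± 13.3 CPM at P3, 182 ± 1.25 CPM at P11 and 388 ± 20.6 CPM at P33. P33 was not tested against P11. The difference, DOX effect minus P33 effect, was 1.40 for AMOTL2 (adjusted p = 1.62e-15), 1.42 for CCN2 (adjusted p = 3.13e-16) and 1.31 for AJUBA (adjusted p = 1.23e-10). It was 0.68 for LATS2 (adjusted p = 5.84e-10), 0.44 for TEAD1 (adjusted p = 3.3e-05) and 0.40 for CCN1 (adjusted p = 0.000618). The coactivators had negative differences, -0.60 for WWTR1 (adjusted p = 3.89e-07) and -0.34 for YAP1 (adjusted p = 9.86e-05). Late passage here means P33 only, since AMOTL2 and LATS2, lower at P33, were higher than P3 at P30 (log2 differences 0.17 and 0.27).

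WWTR1 fell with DOX by 0.52 on the log2 scale and differed by 0.08 between P33 and P3, where it did not pass, while YAP1 rose at P33 by 0.34 and did not pass with DOX. The calls were the same in every alternative for 7 of the 8 genes. That of CCN1 did not pass on total counts (0.21, adjusted p = 0.0589), where TEAD1 was 0.25 and YAP1 -0.52. The effects come from libraries that were counted differently over overlapping genes, each effect within one way of counting. AJUBA shares more of its span with a gene on its strand than the other 9 do. It had 3086 reads in the passage libraries, where that gene had 1271, and 8617 in the DOX and DMSO libraries, where that gene had 0. The part of the counting in the AJUBA difference was not tested.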

How the results depend on the processing

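Of 90 differences of the 10 genes, 69 passed, and 53 of these kept their direction and passed in every alternative; of the 21 that did not pass, 10 passed in none. The 16 that lost the call somewhere were LATS1 (P11 with P3, P30 with P24, P33 with P30, DOX with DMSO), CCN1 (P11 with P3, P33 with P3, DOX effect minus P33 effect), AJUBA (P30 with P3, P30 with P24), AMOTL1 (P30 with P24, DOX with DMSO), AMOTL2 (P30 with P3), CCN2 and TEAD1 (P24 with P3), and WWTR1 and YAP1 (P11 with P3). Without the TMM factor the median of all genes moved by 0.18 between P33 and P3 and by -0.17 for DOX effect minus P33 effect; for the latter the share of higher genes among those passing went from 50.4% to 33.5%. The cause of the changes below was not tested.

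Directions that turned were those of small differences, which did not pass in the fit reported above. With RLE size factors, 0.00812 for LATS1 (P33 with P3), 0.00452 for AMOTL1 (P33 with P30) and 0.00672 for YAP1 (DOX with DMSO) were obtained; in the same order these were 0.185, 0.156 and 0.00933 on total counts, 0.115, 0.0807 and 0.0275 with the filter of 10 CPM, 0.0397, 0.00814 and 0.000507 without overlapping genes, 0.000848, 0.0172 and 0.021 with the sets of libraries fitted apart, and 0.00793, 0.00454 and 0.00695 with DESeq2. On total counts, AMOTL1 passed in that step (adjusted p = 0.0411), TEAD1 was 0.0355 (P11 with P3) and 0.129 (P33 with P3), AJUBA -0.0011 (P24 with P11) and AMOTL1 -0.0681 for DOX effect minus P33 effect. TEAD1 was 0.0589 (P33 with P3) with the filter of 10 CPM, and WWTR1 -0.00775 (P30 with P3) with no filter. When single libraries were left out, the differences ranged from -0.0605 to 0.0564 for LATS1 (P33 with P3), -0.0322 to 0.0381 for AMOTL1 (P33 with P30), -0.0438 to 0.0349 for YAP1 (DOX with DMSO), -0.0324 to 0.00867 for YAP1 (P30 with P24), -0.0125 to 0.0484 for WWTR1 (P30 with P3), -0.0817 to 0.16 for AJUBA and -0.0046 to 0.101 for CCN1 (both P24 with P11).

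The number of all genes passing was 7577 for P33 with P3 and 9233 for any difference among passages with the filter of 10 CPM, where fewer genes were tested. Without overlapping genes, where fewer were tested too, it was 5199 for P11 with P3, 3739 for P24 with P11 and 5417 for P33 with P30. Of the 10 genes, 5 to 8 passed in P11 with P3 when a library was left out, against 9 with all. Named genes of the other lists were put through the same alternatives, which was decided after seeing the data: 40 of 41 differences kept direction and call in all, the exception being TEAD3 with DOX. With the replicate block, 11377 genes passed in P33 with P3 and 6221 in DOX with DMSO, against 11408 and 6278 without it. No direction or call changed among the 90 differences of the 10 genes. The deviations of libraries with the same number correlated from -0.126 to 0.0605, so the numbers were not read as pairs.

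Limits: each group has 3 libraries of 1 line, RNA does not show where YAP and TAZ proteins are, the exposure to DOX is not stated, and AJUBA had at most 14.5 CPM in the passage libraries.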

Other observations

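For 4 of the 10 genes, the genes whose log2 levels ran most like theirs were sought over the 15 passage libraries (5 passages, 3 libraries each) among 7037 eligible genes. For CCN2 they were ELL2, a transcription elongation factor gene (Pearson r = 0.980), BPGM, a glycolytic mutase gene (0.979), and GABARAPL1, an autophagy gene (0.975). For CCN1 they were KATNAL1, a gene of a microtubule-severing katanin subunit (0.957), RHOB, a small GTPase gene of the actin cytoskeleton (0.953), and FBXO30, a ubiquitin ligase gene (0.945). ELL2 stood at 229 ± 9.72 CPM at P11, 309.8 ± 27.4 CPM at P24, 549 ± 21.9 CPM at P30 and 321 ± 18.5 CPM at P33, so that P30 was its highest passage, and RHOB stood at 59.7 ± 5.71 CPM at P24, 87.6 ± 9.78 CPM at P30 and 46.0 ± 1.23 CPM at P33. For YAP1 the closest were PAFAH1B2 (0.971), PCLO (0.970) and TUSC3 (0.967), which had their lowest passage mean at P3 as YAP1 did, and for WWTR1 they were UGDH (0.934), RNF152 and TAMM41 (0.898). UGDH, the gene of the enzyme that makes UDP-glucuronate, stood at 100.5 ± 0.914 CPM at P3, 167 ± 4.09 CPM at P24 and 119 ± 10.4 CPM at P33. These r values are descriptions with no test: libraries of one passage are not independent points, and the genes were picked as the highest of many.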
